A study of Rattus norvegicus with 10 samples.

Results

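The genes described here are markers of the endothelial cells that line brain vessels and of the blood-brain barrier that these cells form. They were chosen by name, as the rows of the count matrix whose RefSeq identifier belongs to Cldn5, Ocln, Pecam1, Flt1, Kdr, Tek, Vwf, Abcb1a, Abcg2 or Slc2a1. Of these 10 genes, 9 were found among the 32041 rows, each by its row of highest mean count, all 9 passed the filter on low counts, and Vwf was not analysed here. Polyadenylated RNA came from CA3 and dentate gyrus tissue of the left hippocampus (the labels name the dorsal hippocampus). The animals were 10 outbred male Sprague-Dawley rats. They were adult, their exact age is not given, and the groups were age matched. All 10 had a bipolar electrode in the left lateral amygdala. The 5 sham operated rats (rats 1 to 5) received no current. The 5 rats with amygdala stimulation (rats 6 to 10) were stimulated at 400 µA and 60 Hz for 30 min, 2 weeks after surgery, to evoke status epilepticus, a prolonged seizure that was stopped with diazepam. Tissue was taken 3 months later. Stimulated animals were watched by video EEG and, per the study's methods, all of them had spontaneous seizures. Each library came from 1 animal. The methods count 4 stimulated rats for this assay and the labels 5, and all 5 were used.

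Endothelial cells of the brain are sealed to one another by tight junctions, take up glucose and amino acids through carriers, and return many lipid-soluble compounds to the blood through ATP-driven pumps. Vascular endothelial growth factor (VEGF) acts on them through the receptors Flt1 and Kdr, and angiopoietins act through the receptor Tek. In the hippocampus these vessels are known to leak for a time after status epilepticus. In a piece of whole tissue, fewer cells of a type and less RNA per cell cannot be told apart.

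Aligned counts ranged from 13552309 to 24086059 per rat, and the share of ribosomal RNA records among aligned counts from 1.82 to 12.2%. The unaligned share was 41.4, 42.9 and 45.1% in stimulated rats 8, 9 and 10, above the 32.8 to 37.1% of all sham rats, and 35.6 and 32.0% in rats 6 and 7. Its part in the results was not tested. Neuronal genes were counted at a summed 4566 to 5197 CPM (CPM is the count per 1000000 counts of the TMM-scaled library) in sham and 4726 to 5002 CPM in stimulated rats, and the 7 matched genes of dentate granule and CA3 neurons at 539.5 to 607.6 and 463.9 to 628 CPM. Cldn5 and Slc2a1, both of the 9 genes and both carried by brain endothelium, were counted in every rat.

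Promoter sequences are shown for Slc2a1, Flt1 and Kdr, the genes with an unadjusted p-value under 0.05 in the comparison of stimulated with sham rats for which the RefSeq promoter table of GRCr8 has an entry. That table held 7 of the 9 genes. Each sequence is the 250 bases before the annotated start, written 5′ to 3′ on the strand of the gene. They lie at chr5:138002272-138002521 (+ strand), chr12:12333180-12333429 (+ strand) and chr14:32571813-32572062 (+ strand). Capitals mark matches to the ETS core GGAA or its reverse TTCC, to the hypoxia response core ACGTG or its reverse CACGT, and to the AP-1 site TGANTCA, which reads alike on both strands.
Slc2a1: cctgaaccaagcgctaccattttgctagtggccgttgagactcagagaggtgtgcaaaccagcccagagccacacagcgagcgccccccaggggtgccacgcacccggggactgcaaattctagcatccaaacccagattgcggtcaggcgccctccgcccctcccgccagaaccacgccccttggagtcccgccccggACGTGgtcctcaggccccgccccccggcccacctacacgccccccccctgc
Flt1: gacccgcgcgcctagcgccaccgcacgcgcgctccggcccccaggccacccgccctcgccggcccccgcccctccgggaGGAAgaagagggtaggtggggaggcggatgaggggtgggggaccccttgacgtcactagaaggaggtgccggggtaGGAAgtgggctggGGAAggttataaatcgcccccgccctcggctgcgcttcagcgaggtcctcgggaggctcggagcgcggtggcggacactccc
Kdr: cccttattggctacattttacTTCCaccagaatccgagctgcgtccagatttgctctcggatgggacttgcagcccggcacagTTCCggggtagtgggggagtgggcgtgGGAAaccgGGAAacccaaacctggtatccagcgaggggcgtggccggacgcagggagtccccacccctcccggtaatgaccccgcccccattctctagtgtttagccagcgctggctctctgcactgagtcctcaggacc
ETS factors are regulators of endothelial genes, the hypoxia core is bound by hypoxia-inducible factors, and AP-1 is bound by Fos and Jun proteins. The Flt1 window held 3 ETS cores and the Kdr window 4, and 55.5% and 34.7% of all 33469 promoters of this length held as many. The Slc2a1 window held no ETS core and 1 hypoxia core, which 16.6% of all promoters held. The AP-1 letters occurred in none of these 3 windows, and in 6.34% of all promoters. Among the other entries, Cldn5 held none of the motifs, Ocln and Abcb1a each held 2 ETS cores, Abcg2 held 1, and Abcb1a held 1 AP-1 match. A match is a match of letters alone.

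It was asked whether these genes differed between stimulated and sham rats 3 months after status epilepticus. Pecam1, Flt1, Kdr and Slc2a1 had higher mean levels in stimulated rats, by 1.76-fold, 1.3-fold, 1.51-fold and 1.69-fold, each under 0.05 before adjustment in the quasi-likelihood test of edgeR. Cldn5, Tek, Abcb1a, Ocln and Abcg2 did not pass even the unadjusted threshold. Thus 4 of 9 genes were higher at this threshold, where 6.7% of all 22447 tested features were, and 0 of 9 were lower, where 3.16% of all features were. The genes were chosen with earlier results of these data known, so these shares are a description and no test of the set. None of the 9 passed an adjusted p-value under 0.05 in that test, and neither did any other feature (0% of features, with 1505 higher and 709 lower at the unadjusted threshold). In that test Pecam1 alone was under the unadjusted cut-off of 0.001 used in the study, where 0.156% of features were higher. Slc2a1 was also under it in edgeR's likelihood ratio test (unadjusted p = 0.000666), edgeR's exact test (0.00068) and DESeq2 (0.000546), and in the quasi-likelihood test without rat 6 (0.000498) or rat 8 (0.000941). The study's own edgeR list at this cut-off, for which its methods count 4 stimulated rats, holds Pecam1 and Slc2a1 as upregulated. Both have adjusted p-values under 0.05 there, and no other of the 9 genes is listed. Of genes named below, it holds Esam, Vegfa, Angpt2, Calcrl, Plat and Nos3 as upregulated and Tjp3 as downregulated, among others. In edgeR's likelihood ratio test, in edgeR's exact test and in DESeq2, 1 of the 9 genes passed the adjusted threshold, Pecam1, and in limma-voom 0 did, with 3 at an unadjusted p-value under 0.05. Features outside the 9 passed in the first 3 of these tests too, with totals given below under the dependence on processing. For limma-voom the share of all features at the unadjusted threshold is not given here, so its 3 of 9 has nothing to stand beside. The median log2 fold change was 0.26 over the 9 genes and 0.01 over all tested features. The difference between groups was not uniform, with 7 genes higher and 2 lower in mean.

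**Figure D1:**
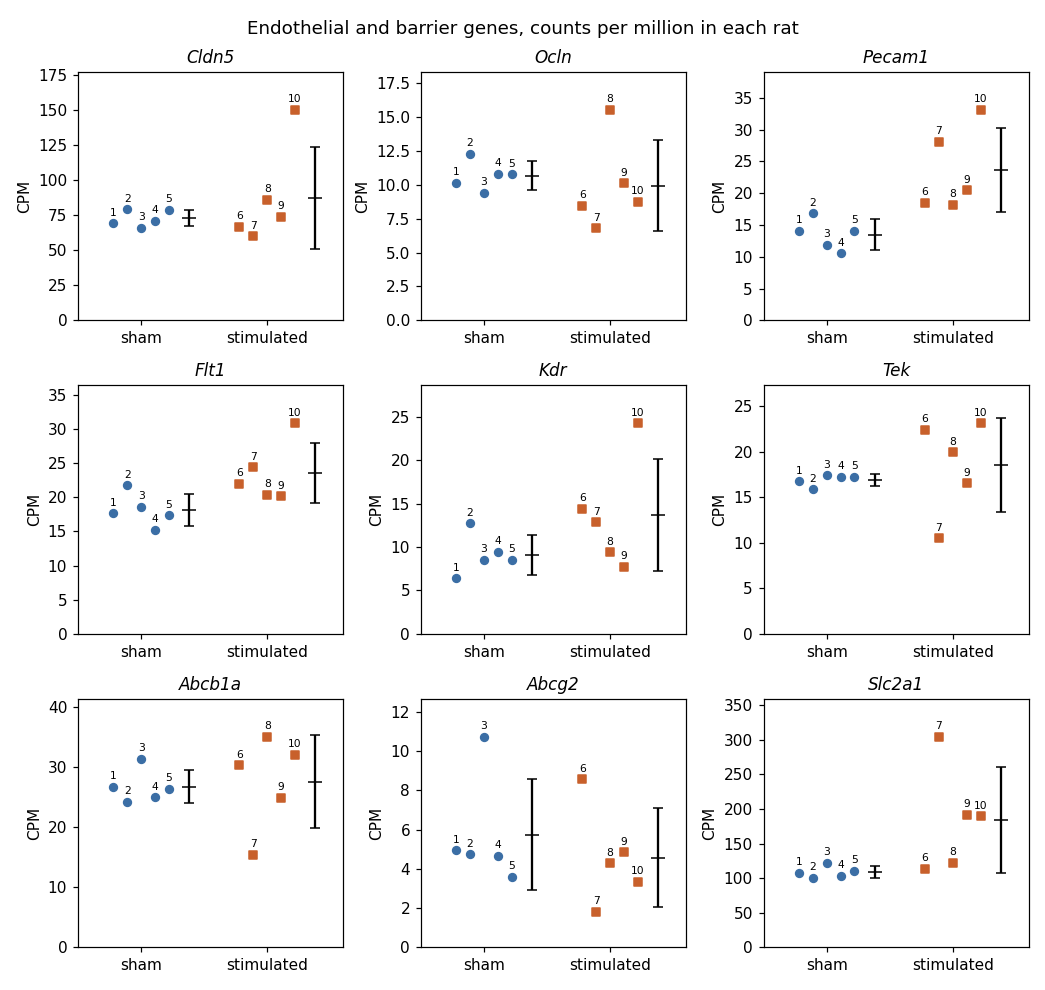
CPM of the 9 genes in each rat (y axis), with sham rats as blue circles and stimulated rats as orange squares. Numbers are rat numbers, and the bar beside each group is the mean with its SD (n = 5). Pecam1 is the one gene whose groups do not overlap, and rats 7 and 10 hold most of the extreme values.

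Among the surface receptors and adhesion molecules of endothelial cells, Pecam1 (NM_031591), which joins endothelial cells to one another and to passing leukocytes, had the lowest p-value of the 9 genes. It was counted at 14.1, 16.9, 11.9, 10.5 and 14.1 CPM in sham rats 1 to 5. In stimulated rats 6 to 10 it was counted at 18.5, 28.1, 18.2, 20.5 and 33.1 CPM. The groups did not overlap, by a narrow margin for rats 6 and 8 and by a wide one for rats 7 and 10. The 95% Poisson intervals of counting error were 16.7 to 20.3, 16.1 to 20.4 and 18.5 to 22.6 CPM in rats 6, 8 and 9. Each overlapped the 14.7 to 19.2 CPM of sham rat 2, so for these rats the margin over it was within counting error. Groups failed to overlap in this direction for 0.695% of tested features, and among the 9 genes for Pecam1 alone. The mean was 13.5 ± 2.42 CPM without and 23.7 ± 6.64 CPM with stimulation (mean ± SD, n = 5 each). Its log2 fold change was 0.81 (SE 0.185, unadjusted p = 0.000635, adjusted p = 0.376 in edgeR's quasi-likelihood test), the 20th lowest p-value of all tested features. It lay between 0.66 and 0.90 over 23 alternative settings, each with an unadjusted p-value under 0.05, and the adjusted p-values ranged from 0.0199 to 0.661.

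Both VEGF receptors were higher in mean. Flt1 (NM_019306), which binds VEGF tightly and limits what reaches Kdr, was counted at 17.6, 21.8, 18.6, 15.2 and 17.4 CPM in sham rats 1 to 5. Levels in stimulated rats 6 to 10 were 21.99, 24.4, 20.3, 20.2 and 30.8 CPM. Rats 6, 7 and 10 were above all sham rats, rats 8 and 9 were above 4 of the 5, and the groups overlapped through sham rat 2. On the log2 scale the fold change was 0.38 (SE 0.138, unadjusted p = 0.0159, adjusted p = 0.418). Without rat 10 it was 0.27, with an unadjusted p-value of 0.0502.

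Kdr (NM_013062), the receptor that carries most of the VEGF signal in endothelial cells, was counted at 6.4, 12.8, 8.55, 9.43 and 8.51 CPM in sham rats 1 to 5. After stimulation, rats 6 to 10 had levels of 14.4, 12.9, 9.39, 7.7 and 24.3 CPM. Rats 6 and 10 were well above the sham range, rat 7 stood barely above sham rat 2, and rats 8 and 9 were within the range. This gave a log2 fold change of 0.59 (SE 0.274, unadjusted p = 0.048, adjusted p = 0.500). This rested largely on rat 10, without which the log2 fold change was 0.29 and the unadjusted p-value 0.211. An unadjusted p-value under 0.05 was kept in 11 of 23 alternative settings.

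Tek (NM_001105737), the receptor of angiopoietins and a stabilizer of quiescent vessels, was the steadiest of the 9 genes in sham rats, at 16.8, 15.9, 17.4, 17.2 and 17.2 CPM in rats 1 to 5. The stimulated rats 6 to 10 had levels of 22.4, 10.5, 19.9, 16.5 and 23.1 CPM. Rats 6, 8 and 10 lay above the sham range and rat 7 lay below it. The SD was thus 8.27 times larger in stimulated than in sham rats, while the means were close. For sham rat 3 the 95% Poisson interval of counting error was 15.6 to 19.4 CPM, wider than the range of all sham rats. The ratio therefore rests on a sham SD that is small beside counting error. In rat 8 the interval was 17.8 to 22.3 CPM, which overlapped that of sham rat 3. The log2 fold change was 0.13 (SE 0.177, adjusted p = 0.847). Without rat 7 it was 0.27 (unadjusted p = 0.0418, adjusted p = 0.663), and without rat 6 or rat 10 it was 0.036 or 0.035.

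**Figure D2:**
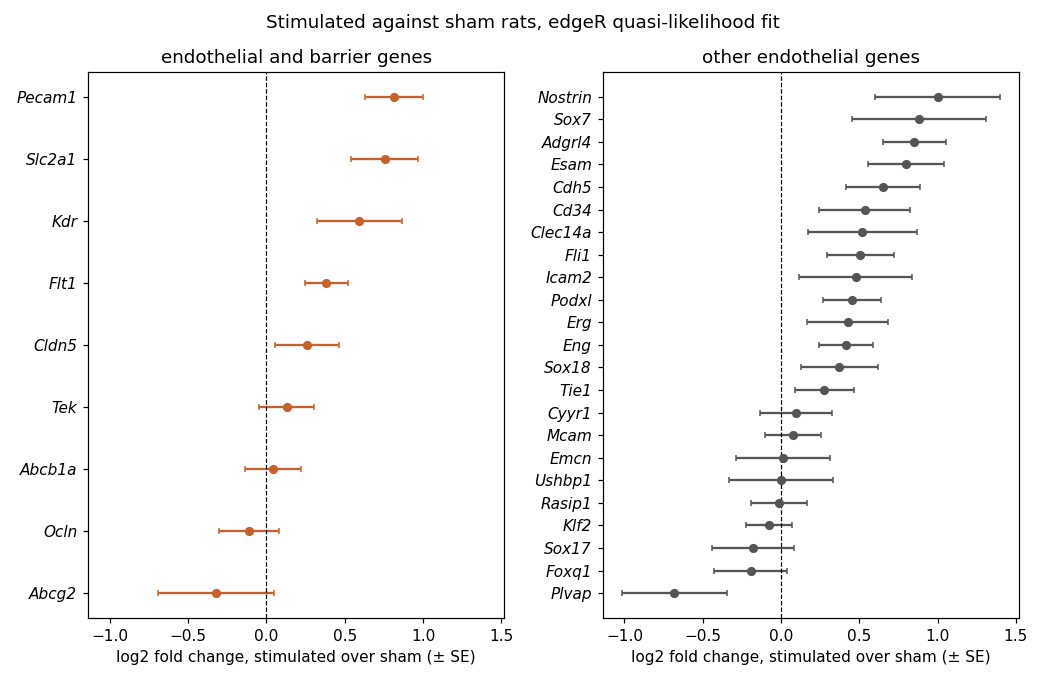
Log2 fold change of stimulated over sham rats with its SE (x axis) for the 9 genes (left) and for 23 other endothelial genes (right), from edgeR's quasi-likelihood fit of all features. The dashed line marks no difference, and no gene shown passed an adjusted p-value under 0.05 in this fit. Values run from -0.32 for Abcg2 to 0.81 for Pecam1 on the left and from -0.68 for Plvap to 1.00 for Nostrin on the right.

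With all rats included, neither junction protein passed the unadjusted threshold. Cldn5 (NM_031701), the main claudin of the barrier, was counted at 69.2, 79.1, 66.1, 70.8 and 78.96 CPM in sham rats 1 to 5. Among rats 6 to 10, stimulated, it was counted at 66.5, 60.04, 85.8, 73.8 and 150.1 CPM. Rat 10 carried far more than any other rat, rat 8 stood a little above the sham range, and rat 7 stood below it. Its log2 fold change was 0.26 (SE 0.203, adjusted p = 0.691), and -0.03 without rat 10. Ocln (NM_031329), a membrane protein of tight junctions, was counted at 10.1, 12.3, 9.42, 10.8 and 10.8 CPM in sham rats 1 to 5. Rats 6 to 10, with stimulation, had levels of 8.46, 6.78, 15.5, 10.1 and 8.72 CPM. Rats 6, 7 and 10 were below all sham rats and rat 8 was above all of them. On the log2 scale the fold change was -0.11 (SE 0.193, adjusted p = 0.889). It depended on rat 8, without which it was -0.34 (unadjusted p = 0.0403, adjusted p = 0.343), and on rat 7, without which it was -0.012. Rats 6, 7 and 10, where Ocln was lowest, had the highest levels of Kdr and Flt1.

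Among transporters, Slc2a1 (NM_138827) had the largest difference. It encodes the glucose transporter of the barrier, which astrocytes also carry in a form with less sugar attached. It was counted at 108.2, 100.9, 122.2, 103.8 and 111.1 CPM in sham rats 1 to 5. In stimulated rats 6 to 10 it was counted at 113.5, 304.4, 122.1, 192 and 189.6 CPM. Rats 7, 9 and 10 were well above all sham rats, and rats 6 and 8 were within the sham range. The mean was 109.3 ± 8.25 CPM without and 184.3 ± 76.5 CPM with stimulation (mean ± SD, n = 5 each). This gave a log2 fold change of 0.76 (SE 0.214, unadjusted p = 0.00342, adjusted p = 0.380). Without rat 7 it was 0.49, with an unadjusted p-value of 0.00549, and the unadjusted p-value was under 0.05 in all 23 alternative settings. The 3 rats in which Slc2a1 was high were those with the most immediate early transcripts, genes switched on by neuronal firing, whose summed level was 668.8, 1631 and 660.9 CPM in rats 7, 9 and 10. The corresponding sums were 194.1 and 133.2 CPM in rats 6 and 8 and 138.9 to 180.3 CPM in sham rats. The summed astrocyte level was 9556, 5908 and 8876 CPM in rats 7, 9 and 10, beside 4683 and 4895 CPM in rats 6 and 8 and 4643 to 5285 CPM in sham rats. Gfap made up most of the excess in rats 7 and 10, with 6469 and 5396 CPM. Without Gfap the sums were 3086 and 3479 CPM in these rats, within the sham range of 2992 to 3676 CPM, and 3829 CPM in rat 9. In rat 7, 4 of the 9 astrocyte genes lay above all sham rats and 4 below, where 28.8% and 26.8% of all tested features did. Among those below were Aldh1l1 and Gjb6, at 16.4 and 15.1 CPM against at least 40.5 and 39.9 CPM in sham rats. The part of either in the level of Slc2a1 was not tested.

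The drug efflux pumps gave no difference beyond the spread between rats. Abcb1a (NM_133401), or P-glycoprotein, was counted at 26.7, 24.3, 31.4, 24.97 and 26.4 CPM in sham rats 1 to 5. Levels in stimulated rats 6 to 10 were 30.3, 15.4, 35.1, 24.9 and 32.1 CPM. Rats 8 and 10 were just above the sham range and rat 7 was far below it. The log2 fold change was 0.04 (SE 0.18, adjusted p = 0.957), and its sign varied with the setting. Abcb1b, a close copy of Abcb1a with which short reads may be shared, was counted at 10.7 ± 0.992 CPM without and 9.88 ± 2.97 CPM with stimulation (mean ± SD, n = 5 each), a log2 fold change near 0 (-0.12, SE 0.192, adjusted p = 0.870). It too was lowest in rat 7, at 5.99 CPM. With the counts of both summed, the log2 fold change was -0.003.

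Abcg2 (NM_181381), the breast cancer resistance protein, was the least counted of the 9 genes, with a mean of 99.8 counts per rat. It was counted at 4.95, 4.73, 10.7, 4.67 and 3.6 CPM in sham rats 1 to 5. After stimulation, rats 6 to 10 had levels of 8.55, 1.81, 4.28, 4.85 and 3.35 CPM. One rat in each group was far above the others, sham rat 3 and stimulated rat 6. In rat 7 the 39 counts gave a 95% Poisson interval of 1.29 to 2.48 CPM, and in sham rat 3 the 197 counts gave 9.28 to 12.3 CPM, so these extremes differed beyond counting error. Its log2 fold change was -0.32 (SE 0.37, adjusted p = 0.806), 0.03 without sham rat 3, and -0.70 without stimulated rat 6.

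**Figure D3:**
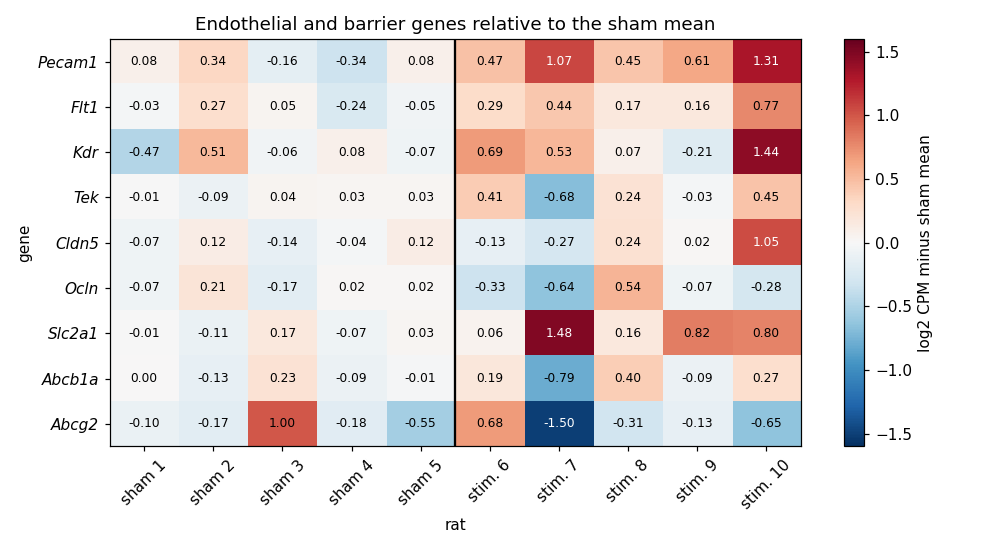
Log2 CPM of each of the 9 genes (rows) in each rat (columns) minus the mean of the 5 sham rats, with red for higher and blue for lower values and the number in each cell. The black line parts sham from stimulated rats. In rat 7 the values run from 1.48 for Slc2a1 to -1.50 for Abcg2, and in rat 10 Cldn5 stands at 1.05 and Kdr at 1.44.

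The 9 genes did not move as a block in stimulated rats. Rat 7 was above all sham rats for 4 genes (Pecam1, Flt1, Kdr and Slc2a1) and below all sham rats for the other 5 (Cldn5, Ocln, Tek, Abcb1a and Abcg2), so that no gene of the 9 was within the sham range. For Kdr the margin over sham rat 2 was within counting error, with 95% Poisson intervals of 11.4 to 14.5 and 10.9 to 14.8 CPM. Over all tested features, rat 7 was above the sham range for 28.8% and below it for 26.8%, the largest shares of any stimulated rat. Rat 10 was above all sham rats for 7 genes and below for Ocln and Abcg2. Over all features it was above for 25.6% and below for 24.1%. Rat 8 was above all sham rats for 5 of the 9 and below for 0, where 17.7% and 17.6% of features were above and below. Rat 6 was above for 4 and below for 1, where 16.0% and 14.2% of features were. Rat 9 was above for 2 (22.2% of the 9) and below for 0, where 25.6% and 23.7% of features were, so its share above was no larger than that of all features.

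This showed also in the level of each gene relative to the mean of the other 8 in the same rat, which library size does not affect. For Pecam1 this log2 contrast was -0.63 ± 0.267 without and -0.001 ± 0.425 with stimulation (mean ± SD, n = 5 each), which differ by 0.62. For Slc2a1 the difference was 0.49, with rat 7 at 4.49, rat 9 at 3.56 and rat 10 at 3.03 beside 2.53 to 2.86 in sham rats. Abcg2 and Ocln went the other way, with differences of -0.68 and -0.43. For Cldn5 the difference was -0.05. The contrasts of one group overlapped those of the other for each of the 9 genes.

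Spread was larger in stimulated than in sham rats for 8 of the 9 genes, all but Abcg2, and for 69.3% of all tested features. The ratio of the SDs ranged from 0.883 for Abcg2 to 9.27 for Slc2a1. The mean log2 CPM of the 9 genes was 4.23, 4.41, 4.41, 4.21 and 4.26 in sham rats 1 to 5. It was 4.56, 4.26, 4.52, 4.42 and 4.88 in stimulated rats 6 to 10. Rats 6, 8 and 10 were above the sham range, rat 9 barely exceeded it, and rat 7 was within it.

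Further genes of the vessel wall and of its signals were read from lists. Beside every list count at the unadjusted threshold of the quasi-likelihood test from here on stand the shares of all tested features, 6.7% higher and 3.16% lower. Of 23 tested endothelial genes outside the 9, 7 were higher and 0 were lower at an unadjusted p-value under 0.05, with a median log2 fold change of 0.42. Adgrl4, an adhesion receptor of endothelial cells, was counted at 6.45 ± 0.227 CPM without and 11.6 ± 4.31 CPM with stimulation (mean ± SD, n = 5 each), and its groups did not overlap (log2 fold change 0.85, SE 0.201, adjusted p = 0.376). The log2 fold changes of Esam and Cdh5, which sit at endothelial cell contacts as Pecam1 does, were 0.80 (SE 0.243) and 0.65 (SE 0.237). For Tie1, the partner of Tek, it was 0.28 (SE 0.189, adjusted p = 0.647). Without rat 10 the values were 0.475 for Esam and 0.068 for Tie1. This list leaned on rat 10, which was above all sham rats for 19 of 23 genes, where rat 6 was so for 3, and without rat 10 the median was 0.09. In none of the lists of vascular genes did a gene pass the adjusted threshold in edgeR's quasi-likelihood test or limma-voom (0 of 106 genes). At an unadjusted p-value under 0.05 these tests gave 33 and 26 of the genes. For limma-voom the share of all features at that threshold is not given here, so its 26 has nothing to stand beside. In the likelihood ratio test 4 passed, in the exact test 3, and in DESeq2 1. Over all 22447 tested features, 2214 were under 0.05 before adjustment in the quasi-likelihood test. The totals that passed adjustment in the last 3 tests are given below under the dependence on processing.

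The ligands of the receptors were of interest beside Flt1, Kdr and Tek. Of 25 tested genes of VEGF, angiopoietin and Notch signalling, 8 were higher and 0 lower at the unadjusted threshold, with a median log2 fold change of 0.27. Vegfa, the main ligand of Flt1 and Kdr, was counted at 7.33 to 8.6 CPM in sham rats and at 8.82, 40.9, 5.94, 14.4 and 20.02 CPM in stimulated rats 6 to 10. It was high in rats 7, 9 and 10, the same rats in which Slc2a1 was high, and lowest of all in rat 8. Its log2 fold change was 1.15 (SE 0.391, adjusted p = 0.409), and 0.58 without rat 7. Angpt2, a ligand that mostly opposes activation of Tek, was counted at 0.331 to 0.873 CPM in sham rats and at 0.498, 10.9, 0.383, 1.43 and 15.2 CPM in rats 6 to 10. Rats 7 and 10 thus stood far above all others, and these same rats had the lowest and the highest level of Tek. The log2 fold change of Angpt2 was 3.48 (SE 0.915, adjusted p = 0.376). Dll4, a Notch ligand of sprouting vessels, had a log2 fold change of 1.43 (SE 0.383) and Calcrl, the adrenomedullin receptor, one of 0.59 (SE 0.166) with no overlap of the groups.

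**Figure D4:**
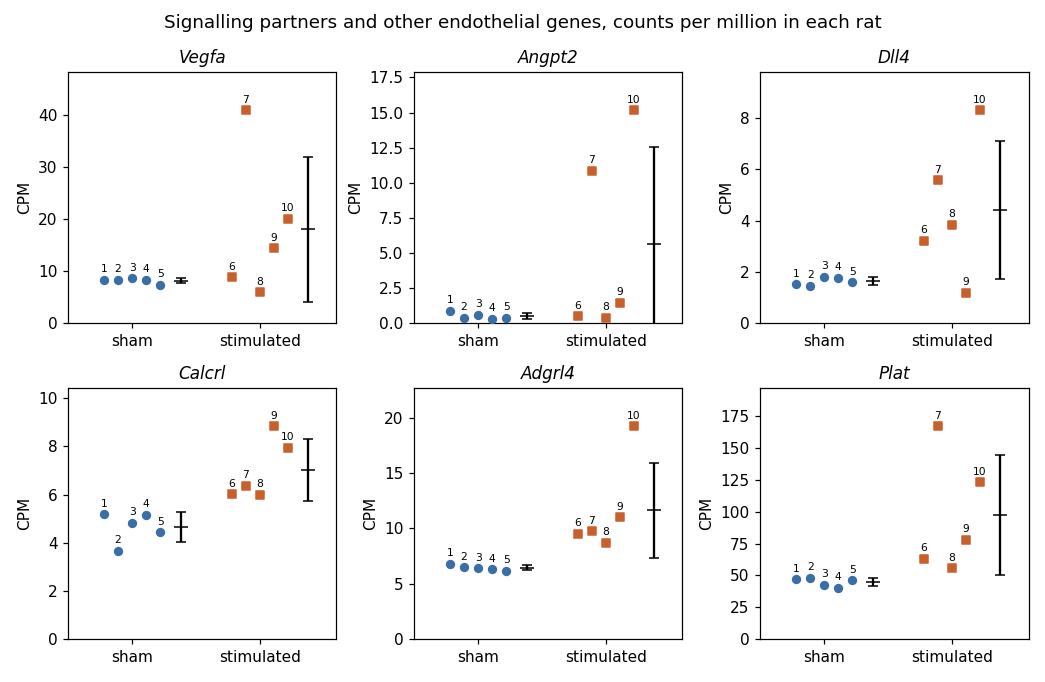
CPM (y axis) in each rat of Vegfa, Angpt2, Dll4, Calcrl, Adgrl4 and Plat, with sham rats as blue circles and stimulated rats as orange squares, and mean with SD beside each group (n = 5). The lower SD bar of Angpt2 is cut at 0 by the axis. Vegfa is highest in rat 7, at 40.9 CPM, and Angpt2 in rat 10, at 15.2 CPM.

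Of 12 tested genes of leukocyte adhesion and haemostasis, 7 were higher and 1 was lower at the unadjusted threshold, with a median log2 fold change of 0.56. Plat, the tissue plasminogen activator, which neurons make as well, was counted at 44.9 ± 3.21 CPM without and 97.2 ± 46.7 CPM with stimulation (mean ± SD, n = 5 each). Its groups did not overlap either (log2 fold change 1.11, SE 0.248, adjusted p = 0.376). On the log2 scale the fold change was 0.78 (SE 0.199) for Nos3, the endothelial nitric oxide synthase, and 0.74 (SE 0.207) for F3, tissue factor.

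Of 13 other junction genes, 1 was higher and 1 lower at the unadjusted threshold, close to the shares of all features (6.7% and 3.16%), with a median log2 fold change of 0.10. Tjp1, the scaffold to which Cldn5 and Ocln bind, was at 105.8 ± 7.93 CPM without and 129 ± 26.7 CPM with stimulation (log2 fold change 0.29, SE 0.122, adjusted p = 0.464, and 0.15 without rat 9). Tjp3 was lower in mean, with a log2 fold change of -0.55 (SE 0.179), and Marveld2, a relative of Ocln, had one of -0.72 (SE 0.342). Of 20 other transport genes, 5 were higher and 0 lower, with a median of 0.11. Slc7a5 and Slc3a2, the paired subunits of the large amino acid carrier, were higher in mean by 0.39 (SE 0.127) and 0.35 (SE 0.103) on the log2 scale, and Cav1, a coat protein of membrane pits, by 0.55 (SE 0.197; 0.34 without rat 10). Of 13 genes of Wnt signalling, which maintains the barrier, 3 were higher and 0 lower, with a median of 0.08. They were Lef1 (log2 fold change 0.68, SE 0.257), Lrp5 (0.43, SE 0.159) and Tspan12 (0.44, SE 0.182, and 0.23 without rat 7).

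Markers of other cells were summed in each rat. For pericytes and smooth muscle, the cells that wrap vessels, 5 of 13 tested genes were higher and 0 lower at the unadjusted threshold, with summed levels of 150.5 to 178.7 CPM in sham and 153.2 to 256.4 CPM in stimulated rats. Differences on the log2 scale were 0.61 (SE 0.179) for Abcc9, 0.69 (SE 0.218) for Acta2 and 0.81 (SE 0.246) for Tagln. Rat 10, which led for Cldn5 and Kdr, was highest here too, and rat 7, lowest for Tek and Abcb1a, was lowest among stimulated rats. For red blood cells 0 of 8 genes passed in either direction, with sums of 367.6 to 940.3 CPM in sham and 465.8 to 857.4 CPM in stimulated rats, and Hba-a1, Hba-a2 and Hbb had log2 fold changes of -0.10, -0.14 and -0.09. Pecam1 is also carried by leukocytes. The 9 matched genes of leukocytes and perivascular macrophages summed to 7.17 to 11.3 CPM in sham and 7.74 to 11.6 CPM in stimulated rats. Of a summed sham mean of 9.62 CPM, Lyve1 held 5.46 and Mrc1 2.49 CPM, while Ptprc held 0.887 CPM. The sum is therefore mostly that of Lyve1 and Mrc1 and says little about other leukocytes. The T cell genes Cd3e, Cd3d and Cd8a did not exceed 0.206 CPM in any rat, and the log2 fold change was -0.26 (SE 0.432) for Ptprc, 1.10 (SE 0.769) for Cd163 and 0.25 (SE 0.378) for Mrc1.

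For astrocytes 4 of 9 genes were higher and 0 lower. Gfap was at 1593 ± 222 CPM without and 3329 ± 2425 CPM with stimulation, with log2 fold changes of 1.06 (SE 0.385) for Gfap, 0.49 (SE 0.129) for Aqp4 and 0.36 (SE 0.12) for Slc1a2. For microglia 2 of 10 were higher, with sums of 345.8 to 441.2 CPM in sham and 373.1 to 587.2 CPM in stimulated rats, and Csf1r, C1qa and C1qb had log2 fold changes of 0.19, 0.39 and 0.51. Without rat 7 these were 0.66 for Gfap, 0.23 for C1qa and 0.29 for C1qb. For fibroblasts and meninges 2 of 8 were higher, with sums of 35.4 to 54.8 and 38.5 to 100.3 CPM, and Lum, Col1a2 and Aldh1a2 had log2 fold changes of 0.73, 0.50 and 0.65. The value of Col1a2 rested on rat 8 and was 0.05 without it. For choroid plexus 1 of 9 was higher, Aqp1 (log2 fold change 1.98, SE 0.756), beside 0.25 for Folr1 and 0.94 for Kcnj13, and the sums were 5.46 to 21.8 and 9.997 to 38.3 CPM. Oligodendrocyte genes (0 of 10) summed to 2887 to 4170 and 2371 to 4004 CPM, with log2 fold changes of -0.25, -0.20 and -0.16 for Mog, Cnp and Cldn11. Of 8 neuronal genes 0 passed in either direction, with -0.23, -0.11 and -0.22 for Rbfox3, Stmn2 and Gad1. Of 7 dentate and CA3 genes 1 was lower, Neurod1 (log2 fold change -0.76, SE 0.282), beside -0.25 for C1ql2 and 0.20 for Neurod2. Immediate early genes were higher for 9 of 10, with log2 fold changes of 3.47, 3.335 and 3.32 for Fos, Fosb and Egr2. The part of these cell types in the levels of the 9 endothelial and barrier genes was not tested.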

How the data were processed

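The deposited values are raw read counts per transcript and rat. The authors used BWA for alignment to RN4, and their methods name an Ensembl annotation for the counting, although the rows carry RefSeq identifiers. The treatment of shared reads and of strand was not given in the sources used here. Symbols came from the RefSeq gene table of GRCr8 by transcript identifier, with the row of highest mean count for each symbol. Features with a summed count below the 30th percentile (46 counts) were left out, which kept 22447 of 32041. The group comparison was edgeR's (4.0.16, R 4.3.3) quasi-likelihood test after trimmed mean (TMM) normalization. All features entered the Benjamini-Hochberg adjustment, and adjusted p-values are from this fit unless another tool is named. The standard error (SE) is the absolute log2 fold change divided by the square root of F. CPM used TMM-scaled library sizes, and log2 CPM a prior count of 2. The procedure was tested on simulated counts. limma 3.58.1 and DESeq2 1.42.0, other normalizations and filters, and the omission of each rat were alternatives. Aligned counts per rat were 13552309 to 24086059, so counting error is largest for genes of low count such as Abcg2. The labels name no batch. The genes and lists were chosen with earlier results of these data known, and the promoter motifs after the values were seen. Of each further list up to 3 genes of lowest p-value were named, beside Abcb1b, Tie1, Cdh5, Vegfa and Angpt2 as relatives, partners or ligands. The 5 features with a gene symbol most alike over rats were named too. Vwf was not analysed here.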

Additional observations from a re-analysis of the deposited data

Results flagged for a closer look

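Dixon's gap, the distance from the most extreme of 5 rats to the next one divided by the range, was computed for 54 groups of values. At the critical value of 0.71 about 1 group in 20 passes by chance, which is 2.7 of these groups, and 3 passed.

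Stimulated rat 10 carried 150 CPM of Cldn5 against 60.04 to 85.8 CPM in rats 6 to 9, which is a gap of 0.714. It also stood apart in the summed CPM of the other endothelial genes, at 393 against 213.1 to 249.4, with a gap of 0.799. Sham rat 3 carried 10.7 CPM of Abcg2 against 3.6 to 4.95 CPM in sham rats 1, 2, 4 and 5, with a gap of 0.812.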

How the results depend on the processing

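In edgeR's quasi-likelihood test no feature reached an adjusted p-value under 0.05 with any normalization or filter tried, nor in limma-voom or when any 1 rat was omitted (lowest 0, highest 0). Of 22447 tested features, the likelihood ratio test of edgeR gave 119, its exact test 89 and DESeq2 31. Pecam1 was among them each time, with a log2 fold change of 0.81 and adjusted p-values of 0.0199, 0.0243 and 0.0324. Why the tools differ was not tested. Omitting 1 rat gave 1066 to 1858 features higher and 536 to 1287 lower at an unadjusted p-value under 0.05, and 2 to 4 higher and 0 to 1 lower of the 9 endothelial and barrier genes. Directions turned for small differences, in log2 fold change. With 1 rat omitted, Cldn5 ranged from -0.027 (without rat 10) to 0.357, Abcg2 from -0.697 to 0.031 (without sham rat 3) and Abcb1a from -0.073 to 0.183. Abcb1a was -0.020 in limma-voom and -0.003 when summed with Abcb1b, an alternative added after the data were seen. The sign also turned for Abcb1b (-0.264 to 0.003), Hba-a1 (-0.262 to 0.027), Hba-a2 (-0.320 to 0.012), Hbb (-0.244 to 0.071) and Mrc1 (-0.212 to 0.511). The median ranged from 0.085 to 0.470 for the other endothelial genes, from 0.115 to 0.589 for pericytes and smooth muscle and from 0.857 to 2.021 for immediate early genes, each lowest without rat 10. No paired analysis was possible because the rats are numbered 1 to 10 and no number occurs in both groups. Differences in genes of low count, such as Abcg2, are the least precise at this depth.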

Other observations

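The genes whose log2 CPM moved over the 10 rats most like the mean of the 9 endothelial and barrier genes, after both were centred on their group means, were Fam43a, C1qtnf6, Tspan15, Pde4a and Paxip1. Their Pearson r was 0.968, 0.953, 0.949, 0.937 and 0.93 (Spearman rho 0.927, 0.915, 0.952, 0.879 and 0.879). The search covered those of the 19472 features with a mean of at least 1 CPM that had a gene symbol and were outside the 9. These 5 had the highest r among them, and features without a symbol were left out. These values describe the same 10 libraries from which the genes were picked, so no p-value is given. None of the 5 belonged to a list of vascular genes. Tspan15, a tetraspanin, was the only one of these 5 with a log2 fold change beyond 2 SE, at -0.45 (SE 0.145, adjusted p = 0.399), from levels of 24.9 ± 3.33 CPM without and 18.3 ± 3.58 CPM with stimulation (mean ± SD, n = 5 each).

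Of the 20 tested transport genes outside the 9, rat 7 lay above all sham rats for 6 and below all sham rats for 9. Over all tested features, rat 7 was above for 28.8% and below for 26.8%. The share of transport genes above was thus close to that of all features, and only the share below was clearly larger. Slco1a4 and Slco1c1, organic anion transporters of brain vessels which were picked once their values were known, were counted in rat 7 at 8.22 and 47.1 CPM, against 33.7 to 38.8 and 83.9 to 98.4 CPM in sham rats. In rat 8 they were at 53.5 and 102.7 CPM. Their log2 fold changes over both groups were -0.06 (SE 0.321) and 0.04 (SE 0.199).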
